A study of Mus musculus with 103 samples.

Results

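Macrophages are phagocytes that clear microbes, dying cells and debris, and they are recognised by a set of transcripts for growth factor receptors, pattern recognition and scavenger receptors, the phagocyte oxidase and the contents of lysosomes. The 10 genes described here are such identity genes: Csf1r, Adgre1, Cd14, Msr1, Marco, Mrc1, Fcgr1, Cybb, Lyz2 and Cd68. They were taken by name, as all probe sets of these genes on 1 mouse array design, which gave 15 probe sets of the 22690 on the array and 10 of 12393 named genes. The measured values played no part in that rule, although the list was drawn up with earlier results of these data known. Where several probe sets read a gene, the brightest on average over all arrays stands for it unless another is named. In build GRCm38.p6 RefSeq places Marco at chr1:120474538-120505024, Mrc1 at chr2:14229414-14332023, Fcgr1 at chr3:96282909-96293969, Msr1 at chr8:39543232-39642750, Lyz2 at chr10:117277541-117282272, Cd68 at chr11:69664213-69666170, Adgre1 at chr17:57358581-57483529 and Cybb at chrX:9435252-9487766, with Cd14 and Csf1r on chromosome 18.

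The series compared ways to amplify and label very small amounts of RNA on 103 arrays. Cells of a cultured line given as RAW267 in the labels were flow sorted in samples of 50, 100, 500, 1000, 5000 and 10000 cells (11 arrays, 2 per cell number and 1 at 100 cells), and were labelled by BIIB, a Biogen Idec protocol that puts cDNA on the array. T and B lymphocytes flow sorted from a spleen of 1 mouse were mixed in 6 ratios, from all T to all B cells, and labelled by BIIB (12 arrays at 100 cells and 6 at 500 cells). Total RNA of 8 tissues, bought as a panel, was on 16 arrays, 1 per tissue by BIIB from 500 pg and 1 by the Affymetrix one-cycle protocol from 1 ug. Universal RNA, a commercial pool of mouse total RNA, was on 58 arrays, labelled by BIIB (6 inputs between 10 pg and 5 ng, 4 arrays each), by 3 kits named two-cycle (Affymetrix), Ovation (Nugen) and RiboAmp HS (Arcturus) (5 inputs between 50 pg and 500 ng, 2 arrays each) and by one-cycle (1 ug, 4 arrays). The labels give no age, sex or strain of the mice, no passage of the line and no treatment, and they do not say that replicates came from separate preparations, so the p-values cover only array-to-array spread, part or all of which may be technical.

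Values are MAS5 signals, the authors' summary of the probes of a probe set on a linear scale, here set to a common trimmed mean of 2501. The median signal of an array lay between 230 and 1661. Precision is limited by how many arrays each group has, and no value of one probe set can be set against another probe set's. A change is a difference of log2(signal + 125) from limma with its SE and its Benjamini-Hochberg adjusted p over 22626 probe sets, and a called gene had an adjusted p under 0.05 together with a difference of 2-fold or more. In bulk RNA, fewer cells of a type and less RNA per cell cannot be told apart.

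The labels were checked against defining markers of the sources. The 2 arrays labelled brain had signals of 1383220 (BIIB) and 389047 (one-cycle) for Alb, the albumin of hepatocytes, and 148 and 138 for Mbp, a myelin protein. The 2 arrays labelled liver had 379 and 65 for Alb and 294776 and 121938 for Mbp. All 9 measured liver markers were called higher on the arrays labelled brain, and all 9 measured brain markers on the arrays labelled liver. These arrays therefore go against their labels, and they are named throughout as arrays labelled brain or liver. RAW267 arrays had 5 to 254 for Cd3e of the T cell receptor complex and 13 to 311 for Cd79b of the B cell receptor, while unmixed T cells had 2013 to 2647 for Cd3e and unmixed B cells had 183693 to 316494 for Cd79b. Markers of other tissues were not all low on the RAW267 arrays. Against universal RNA, 4 of 6 heart markers were called higher and 1 lower, led by the cardiac myosin Myh6 (2.81 ± 0.66). Of 9 brain markers 2 were higher (Snap25, 1.68 ± 0.56, and Mbp, 1.30 ± 0.40), and of 9 liver markers 1 was (Ttr, 1.69 ± 0.66). The summed signal of each list peaked on a RAW267 array of 50 or 100 cells. That of the heart markers reached 51417 at 50 cells, against 1301 to 11860 on the 8 arrays of 500 to 10000 cells.

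Myeloid promoters often carry sites for PU.1 (Spi1), an ETS family transcription factor needed for macrophage development. Of the 10 genes, 6 had an entry in a RefSeq promoter table of build GRCm38.p6 (Lyz2, Cd68, Fcgr1, Mrc1, Marco and Cybb). The 250 bases before the annotated start are shown for 3 genes called higher in RAW267 cells than in lymphocytes, Lyz2 (chr10:117282273-117282522, minus strand), Cd68 (chr11:69666171-69666420, minus strand) and Fcgr1 (chr3:96293970-96294219, minus strand), and for 2 that were not, Mrc1 (chr2:14229164-14229413, plus strand) and Marco (chr1:120505025-120505274, minus strand), so that promoters from both outcomes can be read side by side. Each runs 5′ to 3′ on the gene's strand, and capitals mark matches, on either strand, to GAGGAA or to AGGAAGT, which share 5 letters and can overlap.
Lyz2: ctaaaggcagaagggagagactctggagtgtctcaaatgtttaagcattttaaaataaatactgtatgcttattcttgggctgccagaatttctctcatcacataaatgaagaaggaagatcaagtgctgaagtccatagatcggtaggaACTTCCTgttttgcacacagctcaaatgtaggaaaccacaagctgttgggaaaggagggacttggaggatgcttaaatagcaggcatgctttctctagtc
Cd68: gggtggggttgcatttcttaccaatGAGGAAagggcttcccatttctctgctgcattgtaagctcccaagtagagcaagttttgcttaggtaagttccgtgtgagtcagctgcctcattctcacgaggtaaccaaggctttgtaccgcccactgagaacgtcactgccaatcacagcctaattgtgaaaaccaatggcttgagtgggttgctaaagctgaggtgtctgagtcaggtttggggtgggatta
Fcgr1: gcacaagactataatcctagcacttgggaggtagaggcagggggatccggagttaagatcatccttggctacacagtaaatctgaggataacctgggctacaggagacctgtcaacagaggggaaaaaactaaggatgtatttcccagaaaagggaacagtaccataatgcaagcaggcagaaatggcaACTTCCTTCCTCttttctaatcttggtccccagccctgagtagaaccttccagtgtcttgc
Mrc1: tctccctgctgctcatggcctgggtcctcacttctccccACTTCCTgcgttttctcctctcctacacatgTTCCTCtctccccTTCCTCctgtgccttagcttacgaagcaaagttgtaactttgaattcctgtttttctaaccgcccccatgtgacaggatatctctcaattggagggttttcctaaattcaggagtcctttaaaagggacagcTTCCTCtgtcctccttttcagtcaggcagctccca
Marco: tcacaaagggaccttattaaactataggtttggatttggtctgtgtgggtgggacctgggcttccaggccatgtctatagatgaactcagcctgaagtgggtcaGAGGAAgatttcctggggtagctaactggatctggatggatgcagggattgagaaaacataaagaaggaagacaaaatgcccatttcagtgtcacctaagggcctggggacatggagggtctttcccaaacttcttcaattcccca
The core GAGGAA was in 4 of the 6 windows (Cd68, Fcgr1, Marco and Mrc1), beside 23.3% of 32851 promoter windows of the same length. AGGAAGT was in 3 of the 6 (Fcgr1, Lyz2 and Mrc1), beside 7.69% of all windows. In Fcgr1 the matches adjoined and shared a base, from 61 to 50 bases before the start, and in Mrc1 there were 3 matches to GAGGAA and 1 to AGGAAGT. The window of Cybb (chrX:9469325-9469574, minus strand), also called higher in RAW267 cells, held neither and is not shown. This window lies inside the interval given above for Cybb, whereas those shown adjoin an end of their gene's interval, so it is not fully comparable with them. A match is a description of letters, not of a bound site.

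Of the 10 genes, 8 were called higher in RAW267 cells than in splenic lymphocytes and 1, Mrc1, was called lower, while Marco was not called. Over all probe sets 12.5% were called higher and 35.8% lower. Lyz2, which encodes the lysozyme that digests bacterial cell walls, and Csf1r, the receptor for the growth factor that keeps macrophages alive, differed most. The median change of the 10 genes was 2.73, beside a median of -0.68 over all probe sets. RAW267 arrays had median signals of 368 to 570, against 776 to 1171 in lymphocytes, and with quantile normalization the median over all probe sets was -0.17, so changes near 1 depend on that scaling.

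Csf1r ranged between 98033 and 256268 on the 11 RAW267 arrays, with a median of 130670, against 32 to 1916 with a median of 118 on the 18 lymphocyte arrays. Every RAW267 array lay above every lymphocyte array. The change was 8.67 ± 0.37 (SE, adjusted p = 2.46e-20). Its other probe sets gave smaller changes, of 6.35 ± 0.36 and 3.16 ± 0.27, both called higher.

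Lyz2 had 155066 to 399135 in RAW267 cells, with a median of 223336, against 65 to 2631 with a median of 355 in lymphocytes. The groups did not overlap, and the change was 8.68 ± 0.35 (adjusted p = 1.06e-20). Its neighbour and near copy Lyz1, chiefly a Paneth cell lysozyme, had called changes of 8.50 and 8.99 on its 2 probe sets of the x_at kind, whose probes can read similar transcripts, but 0.82 ± 0.36 on the remaining one, not called. Signal of Lyz2 and Lyz1 can therefore not be fully told apart.

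Cd68, a glycoprotein of late endosomes and lysosomes, had 26971 to 41413 in RAW267 cells (median 31869), against 64 to 5792 in lymphocytes (median 350). The highest lymphocyte array, of 40 T and 60 B cells, still lay below every RAW267 array, and the change was 5.79 ± 0.42 (adjusted p = 1.21e-13). Cd14, the coreceptor that hands lipopolysaccharide to Tlr4, had 15117 to 34171 in RAW267 cells (median 19494) and 32 to 1491 in lymphocytes (median 139). It also showed no overlap and changed by 5.95 ± 0.31 (adjusted p = 1.61e-17). Msr1, the class A scavenger receptor for modified lipoproteins, had 4331 to 25572 in RAW267 cells and 85 to 2694 in lymphocytes, and changed by 3.39 ± 0.37 (adjusted p = 3.17e-09). All of its other 3 probe sets were called higher too, by 2.52 to 4.08, but not all without overlap. On 1 of them the lowest RAW267 array was at 177 and the highest lymphocyte array at 933, and on another at 1046 and 2322. These 5 genes, Csf1r, Lyz2, Cd68, Cd14 and Msr1, were those whose RAW267 arrays all lay above all lymphocyte arrays on the probe set that stands for the gene. Over all probe sets 1.55% showed that pattern.

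The other called genes overlapped between the groups. Fcgr1, the high-affinity receptor for IgG, had 443 to 7105 in RAW267 cells (median 3979), against 25 to 3285 in lymphocytes (median 981), a change of 2.06 ± 0.44 (adjusted p = 0.000244). Adgre1, the adhesion receptor detected by the F4/80 antibody, had 331 to 3942 in RAW267 cells (median 3182) and 56 to 2429 in lymphocytes (median 868), a change of 1.84 ± 0.40 (adjusted p = 0.00032). In both genes the lowest RAW267 value came from 1 of the 2 arrays of 50 cells. Cybb, the catalytic subunit of the phagocyte NADPH oxidase, had 668 to 6321 in RAW267 cells (median 2461) and 133 to 5942 in lymphocytes (median 683), a change of 1.22 ± 0.47 (adjusted p = 0.0259). The call for Cybb was lost without 1 of the arrays of 10000 cells (1.07, adjusted p = 0.0557) and with log10 cell number as a covariate (0.77, adjusted p = 0.224).

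Mrc1, the mannose receptor of tissue-resident and alternatively activated macrophages, was dim on every RAW267 array, at 13 to 336 (median 172), against 83 to 3799 (median 578) in lymphocytes. The groups overlapped, the change was -1.43 ± 0.39 (adjusted p = 0.00294), and the call ended with quantile normalization (-0.76, adjusted p = 0.154). Marco, a scavenger receptor of marginal zone, alveolar and Kupffer macrophages, had 30 to 426 in RAW267 cells (median 73) and 82 to 659 in lymphocytes (median 295), a change of -0.78 ± 0.26 that did not reach 2-fold. Restricted to the cell numbers both sources share, 100 and 500 cells, the same 5 genes without overlap and Fcgr1 kept their calls, and Adgre1 (1.84, adjusted p = 0.08), Cybb and Mrc1 lost theirs. Without the 50-cell arrays the counts were again 8 higher and 1 lower.

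**Figure D1:**
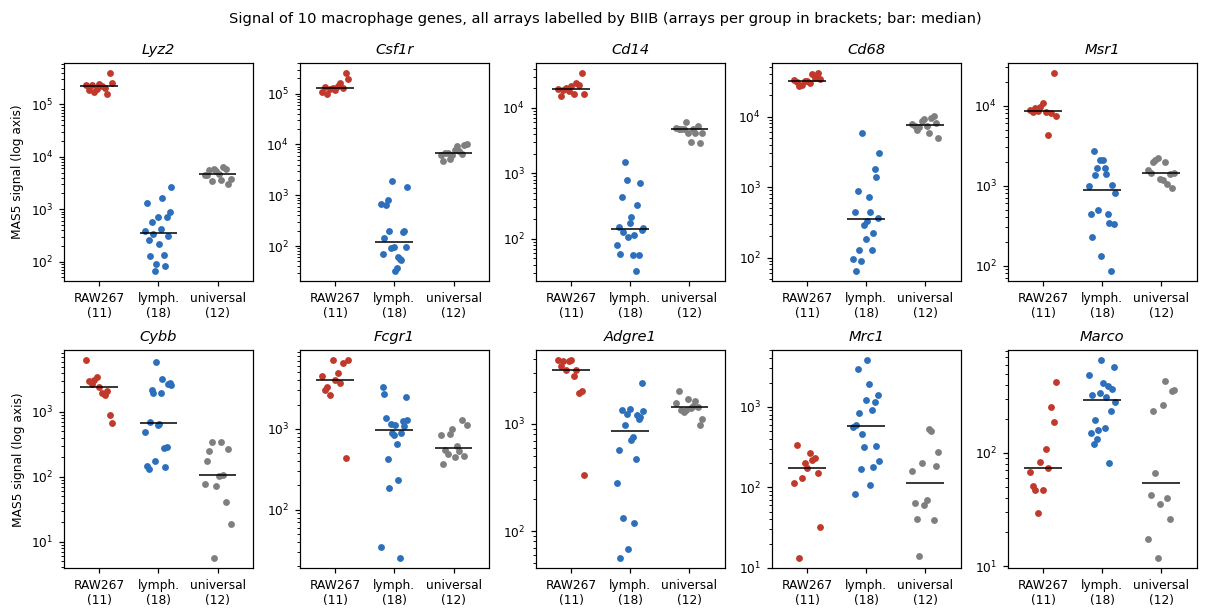
MAS5 signal (log axis) of each of the 10 genes on the 11 RAW267 arrays, the 18 lymphocyte arrays and 12 universal RNA arrays (5 ng, 1 ng and 500 pg), with 1 point per array and a bar at the median. RAW267 arrays stand above all lymphocyte arrays for Lyz2, Csf1r, Cd14, Cd68 and Msr1, and Mrc1 and Marco stay below 500 on every RAW267 array.

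Genes that work with these receptors divided in the same comparison. Of 20 measured adaptors and partners of the receptors, 9 were called higher in RAW267 cells and 5 lower, among them Tlr2 (5.08 ± 0.37), the fractalkine receptor Cx3cr1 (4.21 ± 0.47) and the ITAM adaptors Tyrobp (2.98 ± 0.45) and Fcer1g (2.56 ± 0.38), all 4 higher. Of 14 phagocyte and lysosomal genes, 11 were higher and 1 lower, with a median of 2.68. Lgals3, a galectin, was higher by 4.99 ± 0.46, the melanosome and lysosome glycoprotein Gpnmb by 3.93 ± 0.38 and the protease Ctsb by 3.17 ± 0.32. Of 20 genes of resident macrophages, 2 were higher and 11 lower, where 12.5% of all probe sets were called higher and 35.8% lower. Their median was -1.01, and the lower ones included Siglec1 (-2.04 ± 0.32) and Vsig4 (-1.79 ± 0.41). Many were dim, with a median signal under 500 for 16 of the 20 in RAW267 cells and 14 in lymphocytes, which limits what these calls can mean. Against universal RNA neither Siglec1 (0.58 ± 0.22) nor Vsig4 (-0.07 ± 0.18) was called. Of 5 partners of Cybb in the NADPH oxidase only Rac1 was called, higher by 1.28 ± 0.38. Of 11 myeloid transcription factors 1 was higher and 5 were lower.

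Markers of other blood cells moved with the comparison. All 12 measured T cell markers and 10 of 11 B cell markers were called lower in RAW267 cells, beside 35.8% of all probe sets. So were 9 of 11 neutrophil markers and all 8 dendritic cell markers, but many of these were dim. In lymphocytes 9 of the 11 neutrophil and 4 of the 8 dendritic cell markers had a median signal under 500, and in RAW267 cells 11 and 8 did. The summed signal of the 11 neutrophil markers was 743 to 2177 in RAW267 cells and 3492 to 10548 in lymphocytes, and that of the 8 dendritic cell markers was 303 to 1358 in RAW267 cells and 5359 to 35553 in lymphocytes. Of the 8 dendritic cell markers Ccr7 changed most (-5.15 ± 0.40), and the others lay between -2.09 and -1.03. The sums were not shown to come from neutrophils or dendritic cells among the lymphocytes. The part of these markers in the lower signals of Mrc1 and Marco was not tested.

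Against universal RNA, which pools transcripts of many cell types, RAW267 cells had 7 of the 10 genes called higher and none lower, where 8.68% of all probe sets were called higher and 11.8% lower. Lyz2 was higher by 5.54 ± 0.17 (adjusted p = 9.12e-21), Csf1r by 4.29 ± 0.17 (adjusted p = 3.38e-18) and Cybb by 3.23 ± 0.29 (adjusted p = 2.99e-10). Msr1 was higher by 2.51 ± 0.21, Fcgr1 by 2.25 ± 0.31, Cd14 by 2.17 ± 0.16 and Cd68 by 2.09 ± 0.14. Cybb had 668 to 6321 in RAW267 cells, against 6 to 346 on the 12 universal RNA arrays, with no overlap. For 6 genes (Cybb, Cd68, Lyz2, Csf1r, Cd14 and Msr1) every RAW267 array lay above every universal RNA array, as for 3.1% of all probe sets. The 2 genes closest to universal RNA were Marco (-0.08 ± 0.28, adjusted p = 0.844) and Mrc1 (0.07 ± 0.26, adjusted p = 0.853), both dim in both sources. Adgre1 differed by 0.82 ± 0.26 (adjusted p = 0.0146), under 2-fold. Without the 50-cell arrays it was called as an eighth gene at 1.14, and leaving out the lower of those arrays alone gave 1.07.

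In the same comparison 4 of 5 oxidase partners were called higher, among them the cytosolic subunits Ncf1 (2.02 ± 0.24) and Ncf4 (1.74 ± 0.22), and Rac1 was lower by 1.04 ± 0.18 on the log2 scale. The transcription factors Irf8 (2.95 ± 0.26) and Spi1 (2.17 ± 0.21) were among 3 of 11 higher, and 3 were lower, Id3 (-3.32 ± 0.22), Pparg (-3.17 ± 0.24) and Cebpb (-1.07 ± 0.26). Of 20 receptor adaptors and partners 13 were higher and 1 lower, the growth factor Csf1, a ligand of Csf1r (-4.42 ± 0.16). The resident macrophage genes gave 2 higher and 5 lower of 20, with the phagocytic receptor kinases Axl (-3.34 ± 0.21) and Mertk (-1.77 ± 0.24) among the lower.

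**Figure D2:**
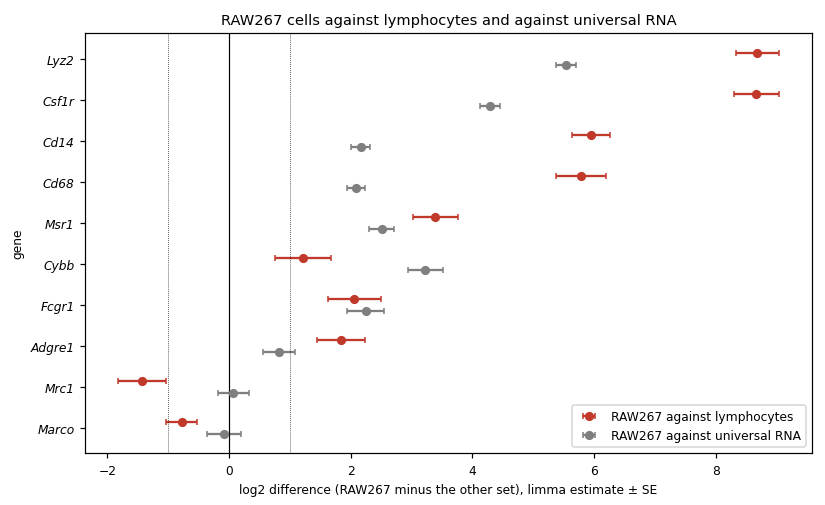
Log2 change (± SE, limma) of the 10 genes in RAW267 cells against 18 lymphocyte arrays and against 12 universal RNA arrays, with dotted lines at 2-fold. Lyz2 and Csf1r lie farthest right in both comparisons, at 8.68 and 8.67 against lymphocytes, and Mrc1 and Marco lie at or left of 0.07.

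Across RAW267 cell numbers none of the 10 genes was called along log10 cell number, where 0.477% of all probe sets were. For 4 of the 10 (Cybb, Marco, Adgre1 and Csf1r) limma gave an unadjusted p below 0.05. No share of all probe sets is given at that looser threshold, so this count cannot be weighed. Cd68 had 41413 and 34159 at 50 cells and 33030 and 30472 at 10000 cells, and its fitted change between 50 and 10000 cells was -0.34 ± 0.28. Lyz2 had a change of -0.37 ± 0.35, Cd14 of -0.40 ± 0.33 and Msr1 of -0.38 ± 0.49. The probe sets of Msr1 disagreed, and another of them ran the other way, at 177 and 403 at 50 cells and 4454 and 3396 at 10000 cells (2.65 ± 0.66, adjusted p = 0.0738, not called). Csf1r lay higher at 50 cells, at 256268 and 190969, than at 10000 cells, at 109686 and 136162. So did 1 other of its probe sets (79788 and 64036 against 32587 and 42347). The remaining one lay lower at 50 cells (11392 and 14762 against 19484 and 15541). Cybb had the steepest slope: its signals were 913 and 668 at 50 cells, 2113 at 100 cells, 1933 and 1814 at 500, 3499 and 2461 at 1000, 2698 and 3077 at 5000 and 6321 and 3001 at 10000 cells. That is a fitted change of 1.89 ± 0.40 (adjusted p = 0.0518), past the threshold in 4 alternatives (adjusted p = 0.03 to 0.0499) and without the array of 100 cells (2.14, adjusted p = 0.0233).

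Adgre1 also lay lower at small numbers, with 2046 and 331 at 50 cells and 1930 at 100 cells, against 3458 and 3916 at 10000 cells, but its change of 1.73 ± 0.54 had an adjusted p of 0.12. Marco went the other way, with 186 and 426 at 50 cells, 256 at 100 cells and 51 and 68 at 10000 cells, a change of -1.29 ± 0.33 (adjusted p = 0.0787) between signals that were dim throughout. Replicate arrays of 50 cells differed by a median of 0.82 (log2) over the 10 genes, beside 1.14 over 11480 bright probe sets. Those of 500 to 10000 cells differed by 0.21 to 0.33 over the 10 genes, beside 0.26 to 0.42. Among the 10 genes the largest gap was in Fcgr1, at 443 and 7105 on the 2 arrays of 50 cells.

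Markers of liver, brain and heart moved along the same cell numbers, none of them called. The fitted changes between 50 and 10000 cells were -5.22 ± 1.19 for the thyroxine carrier Ttr (adjusted p = 0.0601), -4.39 ± 0.95 for the synaptic protein Snap25 (adjusted p = 0.0525) and -4.87 ± 1.29 for Myh6 (adjusted p = 0.0824). The summed signal of the 9 liver markers was 2379 and 24994 at 50 cells and 30722 at 100 cells, against 1051 to 2635 on the 8 arrays of 500 to 10000 cells. That of the 9 brain markers was 6649 and 29030 at 50 cells and 1711 at 100 cells, against 506 to 3321. That of the 6 heart markers was 3523 and 51417 at 50 cells and 15275 at 100 cells, against 1301 to 11860. Their part in the slopes of Cybb, Adgre1 and Marco was not tested.

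**Figure D3:**
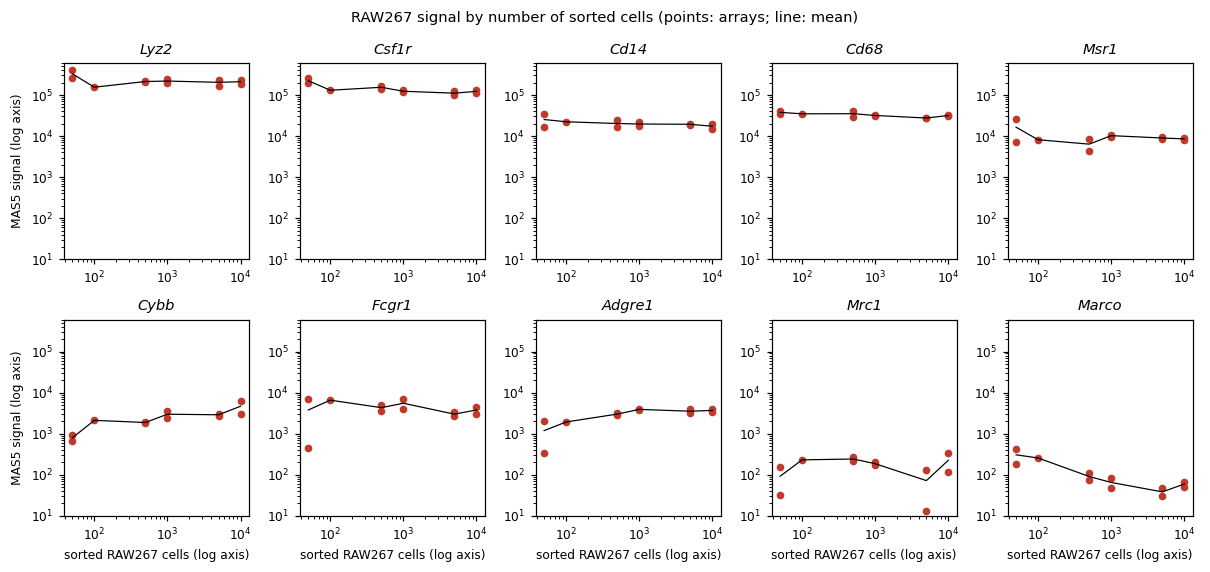
MAS5 signal (log axis) of the 10 genes against the number of sorted RAW267 cells (log axis), 1 point per array and a line through the means. No gene was called along cell number, Cybb is lowest at 50 cells (668 and 913) and Fcgr1 splits at 50 cells (443 and 7105).

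Among the lymphocytes none of the 10 genes was called along the share of B cells, where limma called 0.91% of all probe sets. At an unadjusted p below 0.05 there was 1, Cybb, with no share of all probe sets given at that looser threshold. The same fit called 9 of 12 T cell markers lower and 10 of 11 B cell markers higher with more B cells. Cybb had 1981 and 3210 in unmixed B cells at 100 cells and 2650 at 500 cells, against 499 and 147 in unmixed T cells at 100 cells and 275 at 500 cells. The unmixed arrays did not overlap, but mixtures scattered between 133 and 5942, and the fitted difference of all B over all T cells was 2.71 ± 0.82 (adjusted p = 0.178). Lyz2 had 416, 1654 and 2631 in unmixed B cells and 377, 1307 and 133 in unmixed T cells, with a fitted difference of 1.28 ± 0.75 (adjusted p = 0.737). Cd68 had a fitted difference of 1.58 ± 0.86 (adjusted p = 0.697). The slopes of all 10 genes at 500 cells and at 100 cells did not differ past the threshold (adjusted p = 1 for each).

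The spleen these lymphocytes are sorted from is rich in macrophages. The single BIIB array of whole spleen, an RNA of another source and input, was at least 2-fold above the highest of 18 lymphocyte arrays for 4 of the 10 genes, beside 2.08% of all probe sets, with no test since there was 1 array. Lyz2 was at 182783 in spleen, against at most 2631 in lymphocytes (66.4-fold). Marco was at 16167, against at most 659 (20.8-fold), and Csf1r at 36398, against at most 1916 (17.9-fold). Mrc1 was at 12293, against at most 3799 (3.16-fold). Cybb at 985 and Msr1 at 654 in spleen lay within the lymphocyte range. Spleen also held neutrophil transcripts, with a summed signal of the 11 neutrophil markers of 631826 and 869122 on its 2 arrays, against 3492 to 10548 in lymphocytes. Neutrophils also express lysozyme and Cybb, and their part in these values was not tested.

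Spleen was called higher than the mean of the other 7 tissues for 8 of the 10 genes, where 11.3% of all probe sets were called higher. Marco was higher by 3.35 ± 0.52 (adjusted p = 0.000421), Lyz2 by 3.04 ± 0.26 (adjusted p = 5.6e-06), Cybb by 2.70 ± 0.44, Fcgr1 by 2.07 ± 0.44, Cd68 by 1.97 ± 0.34, Csf1r by 1.62 ± 0.29, Mrc1 by 1.58 ± 0.31 and Adgre1 by 1.53 ± 0.29. Within BIIB the spleen array exceeded the mean of the other 7 by 3.45 for Marco and by 2.27 for Cybb, and within one-cycle by 3.25 and 3.13. Cd14 (0.55 ± 0.31) and Msr1 (0.33 ± 0.50) were not called. Leaving out the arrays labelled brain and liver also gave 8 called genes. Leaving out the BIIB spleen array ended the calls for Adgre1 (1.16, adjusted p = 0.0844) and Fcgr1 (1.43, adjusted p = 0.137). Of other macrophage genes in spleen, the red pulp factor Spic rose by 4.79 ± 0.46 and the scavenger protein Cd5l by 4.18 ± 0.44, and 12 of 20 receptor adaptors and partners were higher with none lower. All 11 neutrophil markers were higher in spleen, by a median of 5.62.

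The arrays labelled brain, which carried the liver markers, also had 8 of the 10 genes called higher, where 7.9% of all probe sets were. Marco was the brightest of all 16 tissue arrays there, at 53231 (BIIB) and 17850 (one-cycle), against 17 to 16167 on the other 14 arrays, a change of 5.46 ± 0.52 (adjusted p = 6.05e-06). Msr1 followed with 4501 and 2659, against 38 to 709 elsewhere, a change of 3.09 ± 0.50 (adjusted p = 0.00056). Its other probe sets did not all show this with BIIB. On 1 the array labelled brain was at 183 and kidney at 291, and on another the array labelled brain was at 240 and spleen at 356. Mrc1 was higher by 1.73 ± 0.31, Adgre1 by 1.65 ± 0.29, Fcgr1 by 1.45 ± 0.44 and Csf1r by 1.33 ± 0.29. Cd14 (1.05 ± 0.31) and Cd68 (1.03 ± 0.34) were just past 2-fold, and lost their calls without the arrays labelled liver (0.90, adjusted p = 0.0617, and 0.85, adjusted p = 0.106). Lyz2 was not called (-0.19 ± 0.26). Without the BIIB array labelled brain 4 genes were called, and without the one-cycle array 5. Vsig4 (6.77 ± 0.42) and Clec4f (6.42 ± 0.44), both known from Kupffer cells, the macrophages of liver, were the most changed of 11 resident macrophage genes called higher of 20 on these arrays.

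The arrays labelled liver, which carried the brain markers, had 8 of the 10 genes called lower, where 13.2% of all probe sets were. Lyz2 was lower by 3.28 ± 0.26 on the log2 scale (adjusted p = 1.72e-06), with 4045 (BIIB) and 1711 (one-cycle). Marco fell by 3.17 ± 0.52 and Mrc1 by 2.34 ± 0.31. The changes of Adgre1, Msr1, Cybb, Cd68 and Cd14 lay between -1.87 and -1.13. Csf1r (-0.07 ± 0.29, adjusted p = 0.897) and Fcgr1 (0.01 ± 0.44, adjusted p = 0.992) were not called. Csf1r is also the receptor that microglia, the macrophages of brain, depend on, and on these arrays the microglial genes P2ry12 (2.22 ± 0.43) and Cx3cr1 (2.12 ± 0.37) were called higher. Without the arrays labelled brain 7 genes were called, Msr1 being lost (-1.18, adjusted p = 0.122). Without the one-cycle array labelled liver 4 genes were called, and without the BIIB array 5.

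In lung 2 of the 10 genes were called higher, where 8.6% of all probe sets were. Lyz2 was at 242116 (BIIB) and 141102 (one-cycle), the highest of all tissues with both protocols, a change of 3.65 ± 0.26 (adjusted p = 2.59e-06). Alveolar macrophages and type II alveolar cells both make lysozyme, and their parts in this signal cannot be told apart in bulk RNA. Cd14 was higher by 1.11 ± 0.31 (adjusted p = 0.0298), a call lost without the BIIB array (0.85, adjusted p = 0.379) and without the one-cycle array (1.37, adjusted p = 0.0959). Marco, at 1536 and 322, was not called in lung (-0.45 ± 0.52). Against spleen directly, lung had 6 genes called lower, where 7.88% of all probe sets were: Marco (-3.32 ± 0.68), Fcgr1 (-2.89 ± 0.58), Cybb (-2.30 ± 0.59), Cd68 (-1.65 ± 0.45), Adgre1 (-1.41 ± 0.39) and Csf1r (-1.24 ± 0.38). Lyz2 differed by 0.54 ± 0.34 (adjusted p = 0.336). Leaving out any of the 4 arrays left 2 or 3 of these calls. Markers of other blood cells were lower in lung in the same comparison, with all 11 neutrophil markers (median -5.64), 8 of 11 B cell markers, 6 of 12 T cell markers and 4 of 5 erythroid markers called. The summed signal of the neutrophil markers was 27908 and 38481 in lung, against 631826 and 869122 in spleen, and their part in the lower Cybb was not tested.

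In kidney 5 genes were called lower, where 7.88% of all probe sets were: Lyz2 (-3.33 ± 0.26), Mrc1 (-2.40 ± 0.31), Marco (-2.29 ± 0.52), Cd68 (-1.95 ± 0.34) and Adgre1 (-1.13 ± 0.29). In ovary 2 were lower, beside 4.06% of all probe sets: Marco (-3.27 ± 0.52) and Csf1r (-1.25 ± 0.29). In embryo only Cd14 was lower (-1.94 ± 0.31), beside 3.66%, and Lyz2 joined it (-1.61) without the arrays labelled brain and liver. In heart Adgre1 (1.12 ± 0.29) and Lyz2 (1.14 ± 0.26) were higher, beside 8.14%, and neither call survived leaving out 1 of the 2 heart arrays. With 1 of the 2 kidney arrays left out, whichever it was, 3 genes were called, Marco and Adgre1 being lost. Cd14 in embryo was lost without the BIIB array (-1.56, adjusted p = 0.0672). In ovary Csf1r was lost whichever of the 2 arrays was left out, and Marco without the BIIB array (-2.18, adjusted p = 0.0931).

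**Figure D4:**
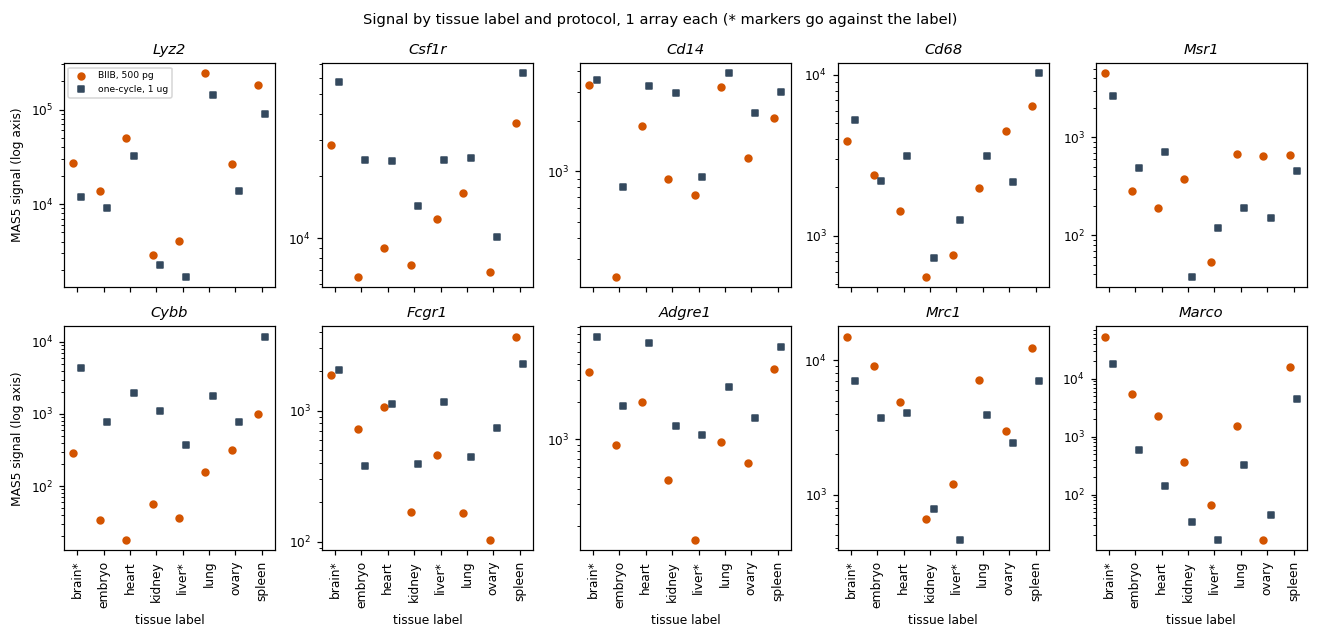
MAS5 signal (log axis) of the 10 genes by tissue label, with 1 BIIB array (circle) and 1 one-cycle array (square) per label. An asterisk marks the labels brain and liver, whose tissue markers go against them. Marco peaks on the arrays labelled brain (53231 and 17850), Lyz2 in lung (242116 and 141102), and Cybb lies lower with BIIB in every tissue.

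The order of the tissues was close to the same under both protocols for some genes and not for others. Pearson's r between the protocols over the 8 tissue labels, which use the same RNA panel, was 0.99 for Lyz2, 0.95 for Adgre1 and Mrc1 (0.948 and 0.945) and 0.93 for Marco, and it was lowest for Cybb (0.76) and Msr1 (0.66). The span between the highest and the lowest tissue was 376-fold (BIIB) and 127-fold (one-cycle) for Marco, 80.4-fold and 76.9-fold for Lyz2 and 5.5-fold and 6.19-fold for Csf1r, each with the pseudocount of 125 in it. On the probe set that stands for each gene, spleen was highest with both protocols for Cybb, Cd68, Csf1r and Fcgr1, the arrays labelled brain for Marco and Msr1, and lung for Lyz2. For Csf1r and Msr1 this depended on the probe set. The other probe sets of Csf1r put the BIIB array labelled brain above spleen, at 10483 against 9949 and at 6134 against 4145. For Adgre1, Cd14 and Mrc1 the first place changed between protocols. With 1 array per tissue and protocol, neighbours in an order that changes between protocols cannot be told apart.

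The tissue arrays also allowed BIIB from 500 pg to be set against one-cycle from 1 ug, where protocol and input cannot be told apart. In the same tissues, 3 genes were called lower with BIIB than with one-cycle and 1 was called higher, where 20.3% of all probe sets were called lower and 8.87% higher. Cybb was lower in all 8 tissues, with 18 to 985 by BIIB, against 371 to 11786 by one-cycle, a change of -2.67 ± 0.29 (adjusted p = 1.16e-05). Adgre1 changed by -1.21 ± 0.19 and Csf1r by -1.01 ± 0.19. Marco was higher by 1.66 ± 0.34 (adjusted p = 0.00141), for example at 2300 by BIIB and 139 by one-cycle in heart, and dim with both in ovary, at 17 and 44. Lyz2 was higher by 0.84 ± 0.17, under 2-fold.

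Universal RNA allowed a comparison with replicates, at a larger BIIB input. BIIB at 5 ng differed from one-cycle at 1 ug by a call in 2 of the 10 genes, where 31% of all probe sets were called. Msr1 was higher by 1.36 ± 0.20 (1763 ± 315 by BIIB and 624 ± 213 by one-cycle, SD, n = 4 each), though another of its probe sets was called lower, with a change of -1.02 ± 0.26. Mrc1 was called lower (adjusted p = 0.00101), at signals of at most 311 with either protocol. Two-cycle at 500 ng gave no called gene of the 10, beside 7.82% of all probe sets. It gave an unadjusted limma p below 0.05 for 2, Cd14 and Msr1, with no share of all probe sets given at that looser threshold.

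Ovation at 500 ng gave 4 called genes, beside 34.4% of all probe sets: Cd14 (-1.86 ± 0.13), Cybb (-1.27 ± 0.38), Adgre1 (-1.12 ± 0.22) and Csf1r (1.08 ± 0.20). RiboAmp HS at 500 ng gave 6, beside 32.2%: Cd68 (-1.54 ± 0.15), Cybb (-1.28 ± 0.38), Cd14 (-1.26 ± 0.13), Lyz2 (-1.17 ± 0.19), Csf1r (1.43 ± 0.20) and Msr1 (1.25 ± 0.25). Cd14 was at 2322 and 2452 with Ovation and at 3432 and 3934 with RiboAmp HS, against 8579 to 9281 with one-cycle, so neither kit overlapped with one-cycle. For Csf1r the direction depended on the probe set, since another probe set was called lower with RiboAmp HS (-1.31 ± 0.16). Without Ovation replicate 2 only Cd14 was called, and without replicate 1 all 4 were.

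With BIIB and less universal RNA, 3 of the 10 genes were called higher with more input between 10 pg and 5 ng, where 13.4% of all probe sets were. Msr1 changed by 2.93 ± 0.73 (adjusted p = 0.00833), Adgre1 by 2.48 ± 0.42 (adjusted p = 0.000821) and Cd68 by 2.02 ± 0.53 (adjusted p = 0.0115). Adgre1 averaged 248 ± 246 at 10 pg, 441 ± 178 at 50 pg, 1232 ± 876 at 100 pg, 1286 ± 299 at 500 pg, 1487 ± 150 at 1 ng and 1563 ± 341 at 5 ng (SD, n = 4 each). Cd68 averaged 1490 ± 789 at 10 pg and 7178 ± 567 at 5 ng. Without the 10 pg arrays 1 of the 10 genes was called. On the same arrays 4 of 9 liver markers were called lower with more input, Alb (-4.24 ± 0.75), Ttr (-2.89 ± 0.59), Fgb (-1.97 ± 0.51) and Apoa1 (-1.89 ± 0.62). The summed signal of the 9 liver markers was 8895 to 20927 at 10 pg, against 689 to 2482 at the larger inputs, and its part in the trends of Msr1, Adgre1 and Cd68 was not tested. At 10 pg single arrays departed widely, with Csf1r between 56 and 14808 and Fcgr1 between 11 and 10950, against 4730 to 6882 and 372 to 839 at 5 ng.

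**Figure D5:**
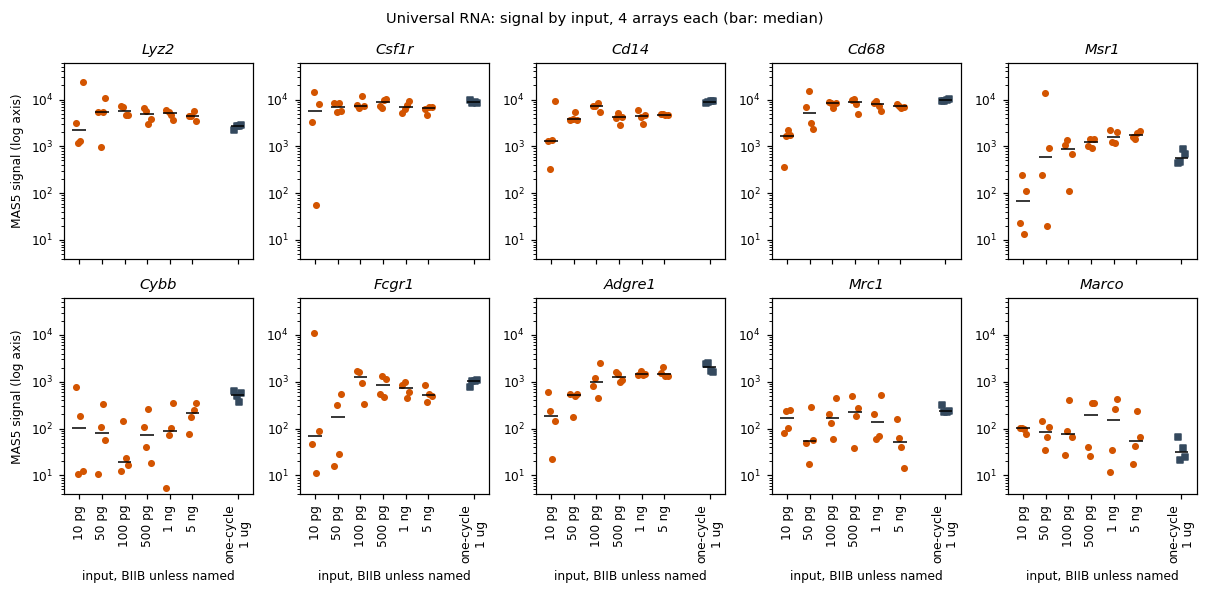
MAS5 signal (log axis) of the 10 genes in universal RNA by BIIB input, 10 pg to 5 ng, and by one-cycle from 1 ug, with 4 arrays each and a bar at the median. Cd68, Adgre1 and Msr1 are lowest at 10 pg, where Fcgr1 spans 11 to 10950, and Cybb lies lower at every BIIB input than with one-cycle in its median.

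The kits at low input were not tested and are given as values of 2 arrays each. With Ovation Cd68 was at 7535 and 9167 from 500 ng, at 550 and 873 from 500 pg and at 97 and 142 from 50 pg. With two-cycle it was at 8281 and 8792 from 500 ng, at 6592 and 9184 from 500 pg and at 429 and 8215 from 50 pg. With RiboAmp HS it was at 3109 and 3363 from 500 ng, at 3409 and 5551 from 500 pg and at 384 and 3980 from 50 pg. Msr1 with Ovation from 50 pg was at 186 and 34669 on replicate arrays. Cybb stayed at or below 636 with 2 of the kits, two-cycle and RiboAmp HS, at every input, and Marco at or below 593 with all 3.

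Over 12 sources labelled by BIIB (8 tissues, unmixed T cells, unmixed B cells, RAW267 cells and universal RNA at 500 pg), Pearson's r between 2 of the 10 genes was above 0 for 42 of 45 pairs, with a median of 0.49. The sources share the protocol and the array scaling, and the values are descriptions. The closest pairs were Csf1r with Cd14 (0.87), Lyz2 with Csf1r (0.82) and Mrc1 with Marco (0.82), and the lowest was Cybb with Mrc1 (-0.28). The 5 genes whose source means were most like the mean of the 10 were the chemokine Ccl9 (r = 0.91), the Fc receptor adaptor Fcer1g (0.89), Ms4a6d (0.87), Ciapin1 (0.86) and Lyz1 (0.86), over the same 12 sources. Lyz2 is among the 10, and its signal cannot be fully told apart from that of Lyz1, so the place of Lyz1 is not independent of that mean.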

How the data were processed

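Per the submitters' processing notes, the deposited values are MAS5 signal intensities on a linear scale, 1 per probe set and array. Which MAS5 version, background and scaling settings were used is not given in the sources used here. The mean of each array without its top and bottom 2% lay between 2500.23 and 2502.45. No detection calls or scanner files were used here. All columns were matched to a sample by title.

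Each array was rescaled to the common mean and log2(signal + 125) was taken (5% of the mean), which understates changes of dim probe sets. No filter on dim probe sets was applied, and 64 control probe sets were left out. Gene symbols came from GEO's annotation of the array (20393 with 1 symbol, 691 with several, 1606 unlisted). By Entrez number 20364 matched a RefSeq table of GRCm38.p6 and 0 symbols changed. The 19 comparisons were fitted with limma 3.58.1 in R 4.3.3 (two-sided, tested on simulated data) on all probe sets, each tissue against the mean of the other 7 with protocol as a factor and 1 shared spread. Named genes were all 10 members, and from other lists up to 4 of the most changed called genes and defining markers. The members, lists and alternatives were chosen with earlier results of these data known. Comparisons that share arrays (tissues, one-cycle, RAW267) are not independent.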

Additional observations from a re-analysis of the deposited data

Results flagged for a closer look

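For each gene, the 7 groups of 4 universal RNA arrays were examined for an array far from the other 3, which made 70 examinations, and chance marks about 1 in 20 of them. In 5 of the 70, 1 array stood apart, all of them BIIB arrays at 100 pg or less. Fcgr1 was at 10950 on replicate 2 at 10 pg, where the next array of its group lay under 100. Cd14 was at 5423 on replicate 3 at 50 pg, above the others. Adgre1 was at 177 on replicate 2 at 50 pg, below the others. Cybb was at 147 on replicate 2 at 100 pg, above the others. Marco was at 75 on replicate 4 at 10 pg, below the others, in a group that was dim throughout.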

How the results depend on the processing

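The members' counts of calls were 9 against lymphocytes, 0 along RAW267 cell number, 7 against universal RNA and 0 along the share of B cells, and 118 of 152 counts under alternatives stayed within 1.5 times their main count. Of 1497 single-gene values 1397 kept their side of the threshold, 84 lost a call and 16 gained one. The sign changed in 50 of the 1497, none of them called in either setting. The cause was not tested for any change below, except that leaving out arrays removes samples by construction.

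Along RAW267 cell number 1 gene (Cybb) was called with a pseudocount of 20%, with the filter on dim probe sets, with an intensity trend and with the replicate number as a block, and 0 or 1 without single arrays, where the calls over all probe sets ranged between 0 and 1018. With no protocol factor the counts were 3 on the arrays labelled brain, 0 in heart, 3 in kidney, 3 on the arrays labelled liver, 1 in lung, 0 in ovary, 5 in spleen and 1 for lung against spleen. Heart and lung each had 1 with quantile normalization and with a pseudocount of 1% or 20%, and the arrays labelled liver had 5 at 20%. Without the other arrays labelled brain or liver, which was tried only once the data had been seen, embryo had 2, heart 1 and ovary 1. BIIB against one-cycle across tissues had 2 at a pseudocount of 20% and 1 with no tissue block. The BIIB input trend had 1 without the 10 pg arrays. Two-cycle had 1 with quantile normalization and 1 with the replicate block, Ovation had 2 with quantile normalization and 2 at 20%, RiboAmp HS had 3 at 20%, and BIIB at 5 ng had 1 with quantile normalization, at 20%, with the dim filter and with the mean of a gene's probe sets.

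Leaving out 1 array at a time gave 8 to 9 calls against lymphocytes, 7 to 8 against universal RNA, 4 to 5 on the arrays labelled brain, 0 to 1 in embryo, 0 in heart, 3 in kidney, 4 to 5 on the arrays labelled liver, 1 in lung, 0 to 1 in ovary, 6 to 8 in spleen, 2 to 3 for lung against spleen, 3 to 4 for BIIB across tissues, 3 to 4 for the input trend, 0 for two-cycle, 1 to 4 for Ovation, 5 to 6 for RiboAmp HS and 1 to 3 for BIIB at 5 ng. Where a tissue or arm was left with 1 array, that array was assumed to vary like the others.

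The main fits did not treat the replicate numbers as pairs. In none of the sets examined did every same-numbered pair correlate above 0.1, a strict rule that cannot show an absence of pairing. In the RAW267 set 10 of 10 arrays, and in the 100-cell lymphocytes 12 of 12, correlated best with their own number, a hint from the data and not from the design. With the block the counts were 9 against lymphocytes, 7 against universal RNA, 0 for the B share, 3 for the input trend, 4 for Ovation, 5 for RiboAmp HS and 2 for BIIB at 5 ng. Slide and scan batches were not used here. The 8 tissues rest on 1 array per protocol, and low signals, as for Marco and Mrc1 in RAW267 cells, limit what can be read from them.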
